A study of Mus musculus with 16 samples.

Results

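Hepatic stellate cells were followed through 10 marker genes: 5 of the quiescent cell (Lrat, Reln, Hgf, Ecm1 and Colec10) and 5 of the activated, myofibroblast-like cell (Acta2, Tagln, Des, Pdgfrb and Vim). The genes were chosen by symbol from the 17410 genes listed over 16 mouse liver libraries, and all 10 were listed in every library. They were measured in whole liver, where stellate cells are a minority, so that fewer stellate cells and less RNA per cell cannot be told apart.

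The libraries form 4 groups of 4 livers, numbered 9 to 24 in the labels, and together they address what loss or gain of the transcription factor ChREBPα in the liver goes with under 2 steatohepatitis diets. WT_NASH (livers 17 to 20) and LKO_NASH (livers 21 to 24) came from mice whose Chrebpα gene is floxed (flox/flox) and which received an adeno-associated virus, AAV-TBG-GFP in the first group and AAV-TBG-Cre in the second. Both ate a NASH diet for 12 weeks, in which 40% of calories came from fat and 20% from fructose, with 2% cholesterol. The TBG promoter is active in hepatocytes, so Cre was directed to those cells and not to stellate cells. Ad_GFP_HFLMCD (livers 9 to 12) and Ad_Chrebpa_HFLMCD (livers 13 to 16) came from wildtype mice that began a diet lacking choline at 2 months of age. Their diet, named HFLMCD, held 45% of calories as fat and 0.1% methionine, and is labelled as 3 weeks long. These mice received adenovirus carrying GFP (Ad-GFP) or Chrebpα (Ad-Chrebpα), and were dissected 1 week later. The labels do not state the age of the flox/flox mice, the sex of the mice or any pooling of animals, and a group without virus or on chow was not analysed here. The libraries held between 21254937 and 40327264 expected counts, and FPKM below is the authors' deposited value, a level per length of transcript and per size of library. The gene of ChREBP itself, Mlxipl, averaged 76.4 ± 22.3 FPKM in LKO_NASH and 66.1 ± 15.1 in WT_NASH (SD, n = 4), and 46.1 ± 1.41 in Ad_Chrebpa_HFLMCD and 43.7 ± 4.61 in Ad_GFP_HFLMCD. The labels name neither the deleted exon nor the transferred cDNA, so whole-gene values are a weak check of the labels.

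Stellate cells lie between the sinusoidal endothelium and the hepatocytes and store vitamin A as retinyl esters while quiescent. On injury they can lose these stores, gain smooth muscle actin and other contractile proteins, respond to platelet-derived growth factor and transforming growth factor β, and lay down fibrillar collagen. Portal fibroblasts, vascular smooth muscle and mesothelium share many of the activated markers, and vimentin is also made by leukocytes and endothelium.

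Upstream sequence is shown for 4 members because Acta2 had the largest differences in the 2 experiments, Lrat is the enzyme that defines the vitamin A store, and Vim and Ecm1 had the highest levels among the activated and the quiescent markers. Each run is the 250 bases before the RefSeq transcription start (GRCm38.p6), 5′ to 3′ on the gene's strand. Capitals mark CArG-like elements, CATTCC or its complement GGAATG, and TATAAA. The CArG box, the element of serum response factor, is CC, then 6 bases of A or T, then GG. A looser form, which allows 1 of the 6 bases to be any base, was added after the strict form had matched no member.
Acta2, chr19:34255374-34255623, minus strand: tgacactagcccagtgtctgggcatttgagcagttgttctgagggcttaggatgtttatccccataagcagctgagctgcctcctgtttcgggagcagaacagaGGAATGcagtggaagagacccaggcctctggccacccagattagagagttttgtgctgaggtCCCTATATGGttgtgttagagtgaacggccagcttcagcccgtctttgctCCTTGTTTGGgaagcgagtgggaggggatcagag
Vim, chr2:13574061-13574310, plus strand: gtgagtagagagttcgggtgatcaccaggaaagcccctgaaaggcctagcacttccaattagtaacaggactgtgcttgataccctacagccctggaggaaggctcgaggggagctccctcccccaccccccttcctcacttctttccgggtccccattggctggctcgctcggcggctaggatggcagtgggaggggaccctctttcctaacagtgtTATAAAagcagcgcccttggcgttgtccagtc
Lrat, chr3:82903975-82904224, minus strand: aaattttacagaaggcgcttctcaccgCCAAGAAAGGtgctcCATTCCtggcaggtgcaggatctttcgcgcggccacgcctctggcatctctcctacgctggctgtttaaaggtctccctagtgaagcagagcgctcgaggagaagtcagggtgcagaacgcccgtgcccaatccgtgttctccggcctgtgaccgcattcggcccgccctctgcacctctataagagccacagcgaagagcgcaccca
Ecm1, chr3:95739570-95739819, minus strand: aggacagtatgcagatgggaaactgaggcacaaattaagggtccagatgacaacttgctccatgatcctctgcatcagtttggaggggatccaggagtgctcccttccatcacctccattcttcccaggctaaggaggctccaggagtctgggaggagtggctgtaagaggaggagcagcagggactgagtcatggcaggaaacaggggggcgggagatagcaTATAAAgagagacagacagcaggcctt

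Acta2 carried the looser CArG element at 84 and at 34 bases before its start and CATTCC, the core read by TEAD factors, at 146 bases. Lrat carried the looser CArG element at 223 bases and CATTCC at 208 bases. Vim and Ecm1 carried TATAAA at 32 and 27 bases. Of 32851 windows of the same length, 8.59% held the looser CArG element on either strand, 1.47% the strict one, 12.6% CATTCC and 12.4% TATAAA. The windows of Des, Reln and Hgf held none of these letters, and those of Tagln, Colec10 and Pdgfrb were not analysed here.

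**Figure D1:**
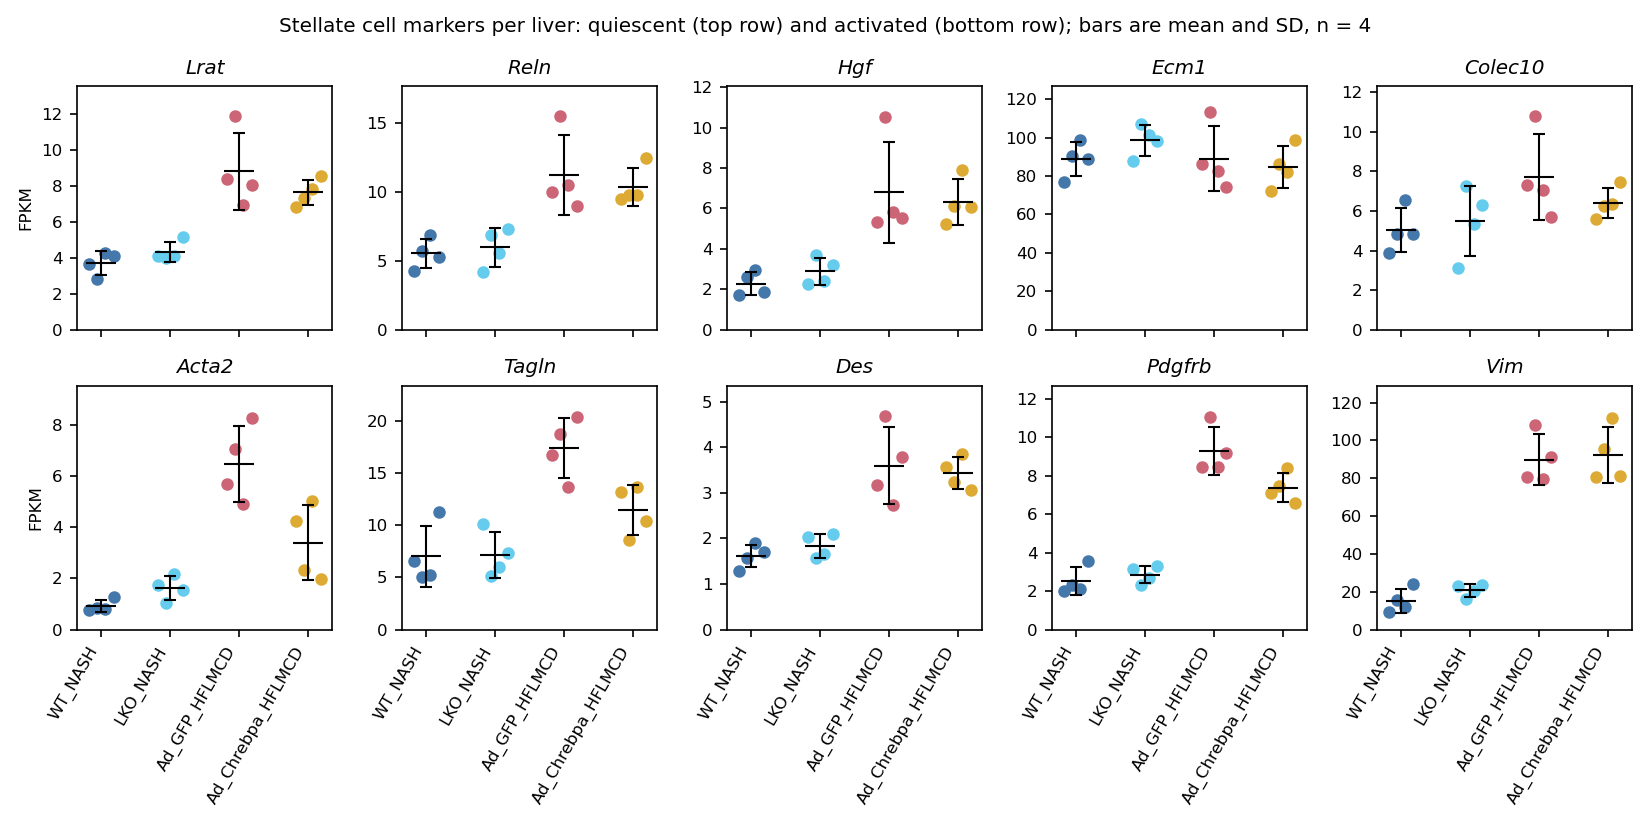
FPKM of the 10 markers in each of the 16 livers (points), with the mean and SD of 4 livers per group (bars) on a linear axis from 0. Acta2 is near 1 in WT_NASH, below 3 in all LKO_NASH livers and highest in Ad_GFP_HFLMCD, while Ecm1 lies between 72.48 and 113.26 in every group.

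Lrat, the acyltransferase that makes retinyl esters, was listed at 3.65, 2.82, 4.26 and 4.11 FPKM in the WT_NASH livers and at 4.08, 3.97, 4.10 and 5.14 in LKO_NASH. In Ad_GFP_HFLMCD it stood at 8.37, 11.86, 6.91 and 8.06 FPKM, and in Ad_Chrebpa_HFLMCD at 6.85, 7.32, 7.84 and 8.52. All 8 livers on the HFLMCD diet lay above all 8 on the NASH diet, and within each diet the groups overlapped.

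Reln, a secreted glycoprotein that stellate cells release, gave 4.29, 5.72, 6.86 and 5.28 FPKM in WT_NASH and 4.16, 6.85, 5.6 and 7.30 in LKO_NASH. It gave 10.00, 15.50, 10.47 and 8.95 FPKM in Ad_GFP_HFLMCD and 9.45, 9.76, 9.74 and 12.46 in Ad_Chrebpa_HFLMCD. The diets again did not overlap, and liver 10 of Ad_GFP_HFLMCD was the highest of all.

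Hgf encodes hepatocyte growth factor, which stellate cells release towards the hepatocyte receptor Met. Its levels were 1.74, 2.59, 2.95 and 1.86 FPKM in WT_NASH, 2.25, 3.69, 2.42 and 3.19 in LKO_NASH, 5.33, 10.52, 5.84 and 5.51 in Ad_GFP_HFLMCD and 5.24, 6.10, 7.90 and 6.05 in Ad_Chrebpa_HFLMCD. Liver 10 was the highest of all 16, and the remaining Ad_GFP_HFLMCD livers lay within the range of Ad_Chrebpa_HFLMCD.

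Colec10, a secreted collectin that works with mannose-binding lectin proteases, ranged from 3.90 to 6.55 FPKM in WT_NASH, from 3.14 to 7.24 in LKO_NASH, from 5.72 to 10.81 in Ad_GFP_HFLMCD and from 5.61 to 7.44 in Ad_Chrebpa_HFLMCD. Ecm1, a secreted matrix protein known to hold latent transforming growth factor β inactive in liver, was the most abundant quiescent marker per length. Its means were 88.8 ± 8.98 (SD, n = 4) FPKM in WT_NASH, 98.5 ± 8.10 in LKO_NASH, 89.0 ± 16.9 in Ad_GFP_HFLMCD and 84.8 ± 10.9 in Ad_Chrebpa_HFLMCD. Neither gene separated any pair of neighbouring groups, and Ecm1 made up between 72.0% and 84.3% of the 5 quiescent markers' summed FPKM when group means were added. Hepatocytes also make Ecm1, so its level is not one of stellate cells alone.

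Acta2, smooth muscle α-actin, was the lowest member in WT_NASH, at 0.77, 0.84, 0.82 and 1.28 FPKM. It stood at 1.73, 1.05, 2.16 and 1.53 in LKO_NASH, at 5.70, 7.04, 4.91 and 8.27 in Ad_GFP_HFLMCD and at 4.24, 2.32, 5.02 and 1.99 in Ad_Chrebpa_HFLMCD. Each step in this order overlapped the next by a single pair of livers: liver 22 lay below liver 20, liver 16 below liver 23, and liver 11 below liver 15. The 4 Ad_Chrebpa_HFLMCD livers fell into a low pair, 14 and 16, and a high pair, 13 and 15, and the counts behind Acta2 in single livers ranged from 46.3 to 772.76.

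Tagln, the actin-binding protein transgelin, was listed at 6.58, 5.03, 5.20 and 11.27 FPKM in WT_NASH and at 10.16, 5.11, 6.02 and 7.37 in LKO_NASH. It was listed at 16.75, 18.78, 13.70 and 20.43 FPKM in Ad_GFP_HFLMCD and at 13.21, 8.57, 13.72 and 10.44 in Ad_Chrebpa_HFLMCD. The 2 adenovirus groups overlapped only in that liver 15, at 13.72, exceeded liver 11, at 13.70. Tagln shares 47.6% of its 50-base exonic stretches with genes on the opposite strand, Pcsk7 and an antisense RNA, in GENCODE M21, Des 5.81% and Reln 1.3% with antisense RNAs, and the labels do not say whether the counting used strand. The mean of Pcsk7 lay between 7.63 and 8.06 FPKM in all 4 groups.

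Des, the muscle intermediate filament desmin, was low throughout, from 1.29 to 2.09 FPKM in the 8 NASH livers and from 2.74 to 4.69 in the 8 HFLMCD livers. Vim, the mesenchymal intermediate filament vimentin, was listed at 9.35, 15.68, 11.74 and 24.17 FPKM in WT_NASH and at 23.02, 16.32, 20.27 and 23.61 in LKO_NASH. In Ad_GFP_HFLMCD it reached 80.47, 108.24, 79.71 and 91.08 FPKM and in Ad_Chrebpa_HFLMCD 80.43, 95.22, 111.95 and 81.42. The diets did not overlap for either filament, whereas the groups within a diet did.

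Pdgfrb encodes the β receptor for platelet-derived growth factor, the mitogen receptor of activated stellate cells. It was listed at 2.02, 2.30, 2.13 and 3.58 FPKM in WT_NASH, 3.13, 2.31, 2.70 and 3.30 in LKO_NASH, 8.44, 11.05, 8.46 and 9.17 in Ad_GFP_HFLMCD and 7.08, 7.47, 8.38 and 6.58 in Ad_Chrebpa_HFLMCD. It was the only member whose FPKM did not overlap between groups of 1 experiment, with all 4 Ad_Chrebpa_HFLMCD livers below all 4 Ad_GFP_HFLMCD livers. Of all genes tested there, 19.4% did not overlap and 14.5% lay lower in this way, and 7.6% did not overlap between the NASH groups. The gap for Pdgfrb, from 8.38 to 8.44 FPKM, was narrow. Over both experiments 6 members, Lrat, Reln, Hgf, Des, Pdgfrb and Vim, were higher in all 8 HFLMCD livers than in all 8 NASH livers, as were 44.5% of the 13830 genes tested.

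With hepatocyte Cre on the NASH diet, no member passed the test. Of 12786 genes, 0% were called by edgeR's quasi-likelihood test at a Benjamini-Hochberg adjusted p below 0.05, although 1737 had an unadjusted p below it, and DESeq2 called 158 genes and no member. Acta2 had the largest difference, a mean of 1.62 ± 0.46 FPKM in LKO_NASH against 0.93 ± 0.24 in WT_NASH (SD, n = 4). Its log2 fold change was 0.66 (SE 0.26, 95% interval 0.08 to 1.23), with an adjusted p of 0.356 in edgeR. Vim followed at 0.31 (SE 0.25, adjusted p = 0.549). The other 8 members lay between -0.10 for Tagln and 0.17 for Hgf on the log2 scale, with adjusted p from 0.698 to 0.996. The intervals show what this size of group can limit: from -0.24 to 0.24 for Ecm1, from -0.75 to 0.54 for Tagln and from -0.55 to 0.49 for Colec10. Without liver 20, the highest WT_NASH liver for Acta2, Tagln, Pdgfrb and Vim, Vim stood at 0.57 and Tagln at 0.16, and Acta2 ran from 0.47 to 0.82 over the 8 fits that each left out 1 liver.

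The genes around the markers were not called in the NASH experiment either. Among 9 matrix products, which include the fibrillar collagens, 8 had a positive log2 fold change with a median of 0.62, beside a median of 0.01 over all genes tested. The median was 0.36 for 11 contractile genes and 0.50 for 9 genes of portal fibroblasts and mesothelium. Of 17 other stellate cell genes, however, 10 were positive and 7 negative, with a median of 0.07. Of 12 genes of retinoid handling 7 were positive and 5 negative, with a median of 0.02. The 13 genes of transforming growth factor β and PDGF signalling had a median of 0.27. Among markers of other cells the median was 0.76 over 10 macrophage markers, all 10 positive, 0.61 over 5 lymphocyte markers, all 5 positive, and 0.36 over 8 endothelial markers. It was -0.34 for 8 hepatocyte markers, -0.66 for 2 neutrophil markers, both negative, and -0.09 for 5 cholangiocyte markers, of which 2 were positive. Summed macrophage FPKM ranged from 86.11 to 225.6 in LKO_NASH and from 66.83 to 146.0 in WT_NASH, and none of these markers was at 0. Their part in the Acta2 and Vim values was not tested. Liver 21 stood apart in its effect on the call count, since leaving it out gave 420 genes called and again no member.

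**Figure D2:**
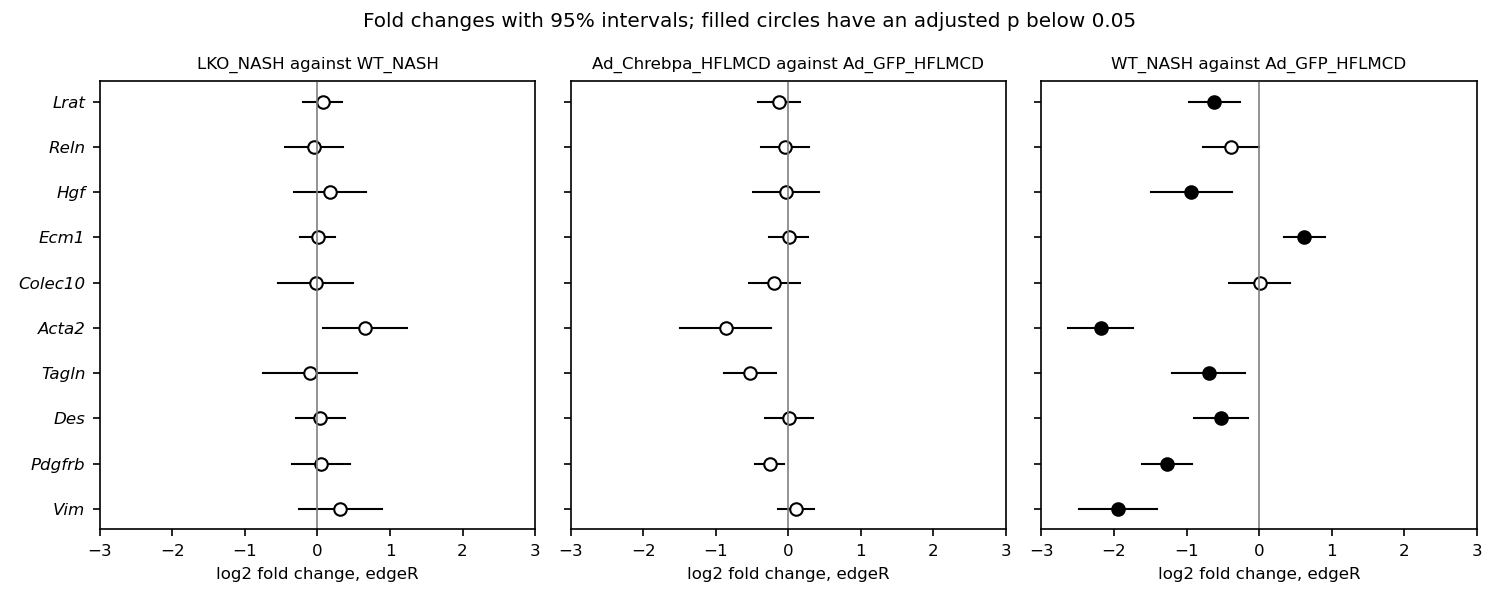
Log2 fold changes of the 10 markers with 95% intervals (lines) from edgeR, in LKO_NASH against WT_NASH, in Ad_Chrebpa_HFLMCD against Ad_GFP_HFLMCD and between the control groups of the 2 experiments. Filled circles have an adjusted p below 0.05, which 0, 0 and 8 markers have in the 3 panels.

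With adenoviral Chrebpα on the HFLMCD diet, 0 of 10 members passed edgeR's test, where 8.13% of 13658 genes did, 4.95% higher and 3.18% lower. The 3 members with the lowest p were all activated markers and all lower on average. Acta2 averaged 3.39 ± 1.47 FPKM against 6.48 ± 1.48 with GFP, a log2 fold change of -0.86 (SE 0.28, 95% interval -1.49 to -0.23) with an adjusted p of 0.0875 in edgeR. Tagln averaged 11.5 ± 2.42 FPKM against 17.4 ± 2.90, at -0.53 (SE 0.16, adjusted p = 0.0716). Pdgfrb averaged 7.38 ± 0.76 FPKM against 9.28 ± 1.23, at -0.26 (SE 0.09, adjusted p = 0.0992). DESeq2, run as an alternative, called Acta2 (adjusted p = 0.0194) and Tagln (0.0198), and limma on log2(FPKM + 1) called Tagln alone (0.0483). With library totals alone, without TMM, the calls that were higher made up 30.4% of all calls in place of 60.9%, and Tagln was called at -0.60 (adjusted p = 0.0454). Over the fits that left out 1 liver, the adjusted p in edgeR ranged from 0.0572 to 0.203 for Acta2, from 0.0634 to 0.183 for Tagln and from 0.0759 to 0.251 for Pdgfrb.

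The 2 filament genes and the quiescent markers gave values near 0 in this experiment. Vim stood at 0.11 on the log2 scale (95% interval -0.14 to 0.36) and Des at 0.01 (-0.32 to 0.33). The quiescent markers were at 0.01 for Ecm1, -0.03 for Hgf, -0.04 for Reln, -0.13 for Lrat and -0.19 for Colec10, with adjusted p from 0.478 to 0.983. Liver 10 held the highest Ad_GFP_HFLMCD value of 8 members, and without it Hgf moved to 0.24, Reln to 0.13 and Lrat to 0.02.

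Contractile genes outside the markers were listed lower as well in Ad_Chrebpa_HFLMCD. Of 12 tested, 10 had a negative log2 fold change, with a median of -0.28 beside -0.01 over all genes, and 2 were called, both lower. These were the tropomyosins Tpm2, which fell by 0.71 on the log2 scale (SE 0.14, adjusted p = 0.0178), and Tpm1, which fell by 0.30 (SE 0.07, adjusted p = 0.0333). Tpm2 was listed at 2.13, 1.87, 1.82 and 1.35 FPKM with Ad-Chrebpα and at 3.10, 3.54, 2.8 and 3.12 with Ad-GFP, without overlap. Tagln2, the transgelin of non-muscle cells, fell by 0.42 (SE 0.08, adjusted p = 0.0184). Levels differed widely within the contractile list. Myh11, the smooth muscle myosin heavy chain, lay between 0.23 and 0.98 FPKM and Cnn1, calponin, between 0 and 0.24 over the 8 livers. Cald1 averaged 125.5 FPKM with Ad-GFP and 108.2 with Ad-Chrebpα, and Mylk 13.9 and 13.3. The part of vessel smooth muscle in the Acta2 and Tagln values was not tested.

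Of 10 genes of portal fibroblasts and mesothelium 8 were negative, with a median of -0.25 and 0 called. The 9 matrix products had a median of -0.44 with 0 called, and 13 genes of transforming growth factor β and PDGF signalling a median of -0.08 with 0 called. Of 18 other stellate cell genes, Ngfr, the low-affinity nerve growth factor receptor, was the only one called. It rose by 0.88 (SE 0.18, adjusted p = 0.0181), from 2.31, 2.31, 1.52 and 1.43 FPKM with GFP to 2.83, 3.01, 3.99 and 3.39. Among 13 genes of retinoid handling 1 was called, Stra6l, a retinol transporter, which rose by 0.83 (SE 0.11, adjusted p = 0.00329). On the HGF axis the receptor Met rose by 0.25 (adjusted p = 0.0496) and the protease St14 fell by 1.5 (adjusted p = 0.0449), while the ligand Hgf did not pass the test. These calls depended in part on the scaling. With library totals alone Met was not called. On that scale 2 of the 13 retinoid genes, 1 of the 18 other stellate cell genes and 1 of the 13 signalling genes were called lower.

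Markers of bile duct cells were lower in this experiment as well, with a median of -0.90 and all 5 negative. Of 5 cholangiocyte markers, 3 were called lower: Krt19 at -1.22, Epcam at -0.90 and Sox9 at -0.57. Their sum with the other 2, mostly Spp1, ranged from 93.4 to 140.0 FPKM with Ad-Chrebpα and from 117.5 to 283.6 with GFP, and no marker was at 0. The 7 lymphocyte markers were all positive, with a median of 0.31, and 1 was called, Jchain, which rose by 2.09. Of 10 macrophage markers 7 were negative, with a median of -0.08, and 1 was called, Itgax, which rose by 0.40 and was not called with library totals alone. The 8 endothelial markers had a median of -0.02 with 0 called, and 3 neutrophil markers a median of -0.08 with 0 called. Of 8 hepatocyte markers 7 were positive, with a median of 0.19, and 1 was called, Apoa1, which rose by 0.33. The part of these cells in the Acta2, Tagln and Pdgfrb values was not tested. Of the 13 neighbouring and other-cell genes called in this experiment, Stra6l, Tpm2, Jchain and Krt19 kept their call whichever liver was left out, but only Stra6l, Jchain and Ngfr kept it in the fit of all 16 livers, which ended the calls of Tpm2, Tpm1, Tagln2, Krt19, Epcam, Sox9, St14, Met, Itgax and Apoa1. Among fits that left out 1 liver, Ngfr lost it without liver 16, Tagln2 without liver 13 or 16, Epcam without liver 13, 15 or 16 and Tpm1 without liver 9, 10, 12, 15 or 16. St14, Met, Itgax, Sox9 and Apoa1 each lost it in 6 or 7 of the 8 fits.

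**Figure D3:**
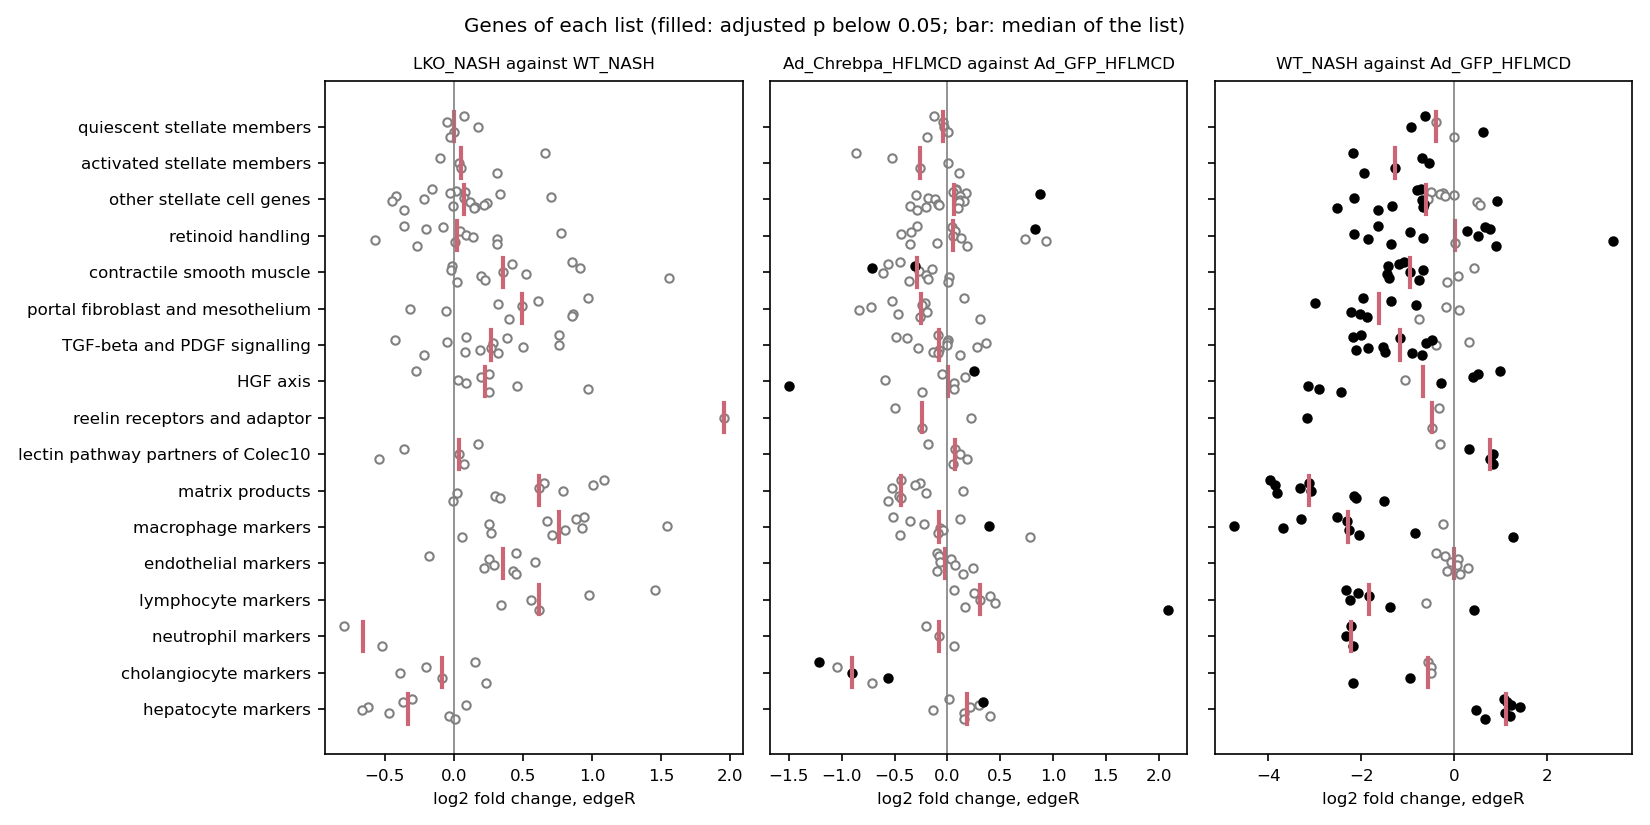
Log2 fold changes from edgeR of the genes in 17 lists (points, with vertical offsets that carry no meaning, filled where the adjusted p is below 0.05, and red bars at each list's median), in 3 comparisons with separate axes. In the first panel no gene is filled. In the third panel all 9 matrix products lie left of 0, and so do all 5 activated markers, whereas all 8 hepatocyte markers lie right of it under this TMM scaling (6 of the 8 are called higher with library totals alone).

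Acta2 was higher on average with hepatocyte Cre and lower with added Chrebpα, and the difference between these effects was tested in a fit of all 16 livers. Diet, its length, the kind of virus and the floxed allele also differ between the 2 experiments. Their parts in such a difference cannot be told apart from those of loss and gain of ChREBPα. The difference, LKO_NASH minus WT_NASH less Ad_Chrebpa_HFLMCD minus Ad_GFP_HFLMCD, was 1.49 on the log2 scale for Acta2 (SE 0.42, 95% interval 0.60 to 2.38), with an adjusted p of 0.0685. Of 13830 genes 2.6% were called. DESeq2 (adjusted p = 0.0116), limma on log2(FPKM + 1) (0.0261) and edgeR without liver 21 (0.0491) called Acta2, and leaving out single livers gave 0.0491 to 0.126. For Tagln the difference was 0.40 (adjusted p = 0.55) and for Pdgfrb 0.28 (0.457). The other 7 members had adjusted p from 0.637 to 0.991. Tgfb1, the ligand that drives stellate activation, was called at 0.83 (adjusted p = 0.0409), with 7.34 to 9.55 FPKM in LKO_NASH, 3.07 to 5.63 in WT_NASH, 21.8 to 26.93 in Ad_Chrebpa_HFLMCD and 22.6 to 34.59 in Ad_GFP_HFLMCD. The smooth muscle gene Synpo2 was called at 1.72, though its level was close to 0. Its means were 0.0275 FPKM in WT_NASH, 0.09 in LKO_NASH, 0.1125 in Ad_GFP_HFLMCD and 0.095 in Ad_Chrebpa_HFLMCD. Also called were the portal fibroblast genes Entpd2 and Gas6 at 1.03 and 0.71, Stra6l at -1.06 and the lectin Mbl1 at -0.75. Of other cells Jchain was called at -1.5 and Apoa1 at -0.72. Of these 8 genes Stra6l alone kept its call in each of the 16 fits that left out 1 liver, and the others lost it in 12 to 14 of them. Without TMM the calls that were higher went from 37.6% to 90.4% of all calls, and Mbl1, Jchain and Apoa1 were not called.

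The widest differences lay between the control groups of the 2 experiments, WT_NASH and Ad_GFP_HFLMCD. Diet, its length, the kind of virus, the floxed allele and possibly age differ together here, so their parts cannot be told apart, and each group also serves as control in its own experiment. In WT_NASH 7 members were called lower and 1 higher, where 59.1% of 13488 genes were called, 30.9% lower and 28.2% higher. Acta2 was 4.54-fold lower (95% interval 3.33 to 6.19, adjusted p = 1.48e-05), Vim 3.85-fold lower (2.66 to 5.58, adjusted p = 8.69e-05) and Pdgfrb 2.41-fold lower (1.89 to 3.07, adjusted p = 8.79e-05). Hgf was 1.91-fold lower (adjusted p = 0.00915), Tagln 1.62-fold (0.0233), Lrat 1.54-fold (0.00688) and Des 1.44-fold (0.0219). Ecm1 was called 1.54-fold higher (adjusted p = 0.0018). Reln, at -0.39 on the log2 scale (adjusted p = 0.076), and Colec10, at 0.01 (0.967), did not pass.

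These folds rest on the scaling. The 10 most counted genes held 19.2% to 20.2% of the counts in WT_NASH and 14.6% to 15.9% in Ad_GFP_HFLMCD, and their part in the shift between scalings was not tested. With library totals alone the median of all genes shifted by -0.62 on the log2 scale, and the calls that were higher in WT_NASH went from 47.7% of all calls to 7.33%. The calls then numbered 10539 of 13488 genes. On that scale Ecm1 was at -0.0011 and not called, Colec10 at -0.61 (adjusted p = 0.0187) and Reln at -1.02 (0.000666), both lower, and Acta2, Vim and Pdgfrb remained lower. Relative to the median of all genes, Ecm1 lay above it and Acta2, Vim and Pdgfrb below it under both. Tagln lost its call without liver 10 (-0.67), 12 (-0.60), 18 (-0.58) or 19 (-0.56), and Des without liver 10 (-0.39), 12 (-0.49) or 17 (-0.44). Reln gained one without liver 12 (-0.48) or 19 (-0.50).

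**Figure D4:**
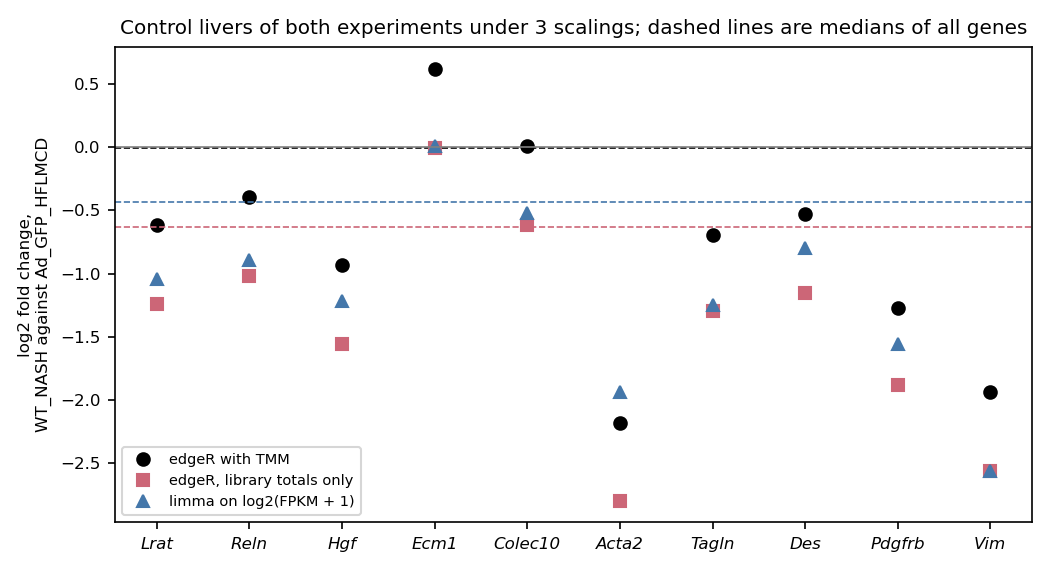
Log2 fold changes of the 10 markers in WT_NASH against Ad_GFP_HFLMCD under 3 scalings (symbols), with the median of all genes under each (dashed lines). Ecm1 is at 0.62 with TMM and near 0 under the others, while Acta2, Vim and Pdgfrb lie below the median line of each scaling.

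Matrix and signalling genes were lower in WT_NASH as well. All 9 matrix products were called lower in WT_NASH, with a median of -3.13, and Col1a1, the main chain of type I collagen, was listed at 1.74 to 4.01 FPKM against 52.05 to 91.57. Of 13 genes of transforming growth factor β and PDGF signalling 11 were called lower, led by Pdgfa at -1.85, Tgfb1 at -2.01 and Tgfb2 at -2.17. Of 11 contractile genes 8 were lower, and of 10 portal fibroblast and mesothelial genes 7, with Eln, elastin, at -2.99. Among 18 other stellate cell genes 9 were lower and 1 higher, led by Lum, a matrix proteoglycan, at -2.53, and Nes, the filament nestin, at -2.14.

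Retinoid genes went both ways between the control groups, with 6 of 13 called higher and 6 lower in WT_NASH and a median of 0.03. That balance depended on the scaling: with library totals alone 2 were called higher and 8 lower. Their median was then -0.60, near that of all genes on that scale, -0.63. Cyp26b1, which breaks down retinoic acid, was listed at 4.91, 2.24, 3.06 and 7.11 FPKM in WT_NASH and at 0.65, 0.45, 0.41 and 0.93 in Ad_GFP_HFLMCD, a log2 difference of 3.43 (adjusted p = 4.44e-05). Rxra, a retinoid receptor, was at 0.91. On the HGF axis Plau, the urokinase that can cleave the HGF precursor, was at -2.91 and Met at 1.00. Of 5 lectin partners of Colec10, 4 were called higher with TMM, and the 3 with the lowest p were Masp2, Mbl2 and Mbl1. With library totals alone 0 of the 5 were called higher and 2 lower, with a median of 0.16 beside -0.63 over all genes.

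Markers of other cells did not all go the same way between the control groups. All 5 cholangiocyte markers were negative with TMM, with a median of -0.55 and 2 called lower, and with library totals alone 5 were called lower. Of 10 macrophage markers 8 were called lower in WT_NASH and 1 higher, with a median of -2.28, and their summed FPKM ranged from 66.83 to 146.0 against 855.9 to 1294. Of 7 lymphocyte markers 5 were lower, and of 3 neutrophil markers all 3, summing to 1.48 to 5.72 FPKM against 18.75 to 43.19. With TMM the 8 hepatocyte markers were all called higher, with a median of 1.12, and 0 of 8 endothelial markers were called, with a median of 0.01. With library totals alone 6 of the 8 hepatocyte markers were called higher, with a median of 0.50. On that scale 5 of the 8 endothelial markers were called lower, with a median of -0.62, near the median of all genes, -0.63. Of 13488 genes 10539 were then called, and 7.33% of these calls were higher, so most genes were called lower. No marker of these lists had a group mean of 0, apart from Ly6g of neutrophils, which no table listed. Vim is made by leukocytes too, and the part of these cells in the values of Vim and of the other members was not tested. Cytoplasmic actins, which all cells make, were also lower: Actb averaged 229.3 ± 42.4 FPKM against 794.0 ± 55.4, at -1.17, and Actg1 was at -1.66. Acta2, at -2.18, was further from 0 than both. The skeletal and cardiac relatives Acta1 and Actc1 stayed at or below 0.69 FPKM in these groups. At that low level Actc1 was called at -3.18 (adjusted p = 0.00105 in edgeR), further from 0 than Acta2.

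The balance of the activated and quiescent markers can be put as the log2 ratio of the geometric mean FPKM of the 5 activated to that of the 5 quiescent markers in a liver. It ran from -1.62 to -0.61 in WT_NASH, from -1.58 to -0.41 in LKO_NASH, from -0.34 to 0.33 in Ad_GFP_HFLMCD and from -0.76 to -0.06 in Ad_Chrebpa_HFLMCD. The ratio was higher on the HFLMCD than on the NASH diet except that livers 14 and 16 lay below liver 21, and liver 16 also below liver 20. The groups of a diet overlapped. This order rests partly on Vim and Ecm1, which other cells also make. Without both genes the activated and quiescent geometric means were 3.25 and 3.31 FPKM in liver 21 and 9.10 and 12.0 in liver 10. Liver 21 then lay above every HFLMCD liver except liver 12, at 8.75 and 6.91. The ratio is a description of members chosen with these data known and carries no test.

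Within groups the markers did not vary as 1 block. After subtracting the group mean of log2(FPKM + 1), 7 of 45 pairs correlated over 16 livers at an adjusted p below 0.05, by a permutation test of 100000 resamples adjusted over the 45. The share among pairs of other genes was not analysed here, so this count cannot be read as particular to the markers. Reln and Colec10 gave the highest value (r = 0.954, rho = 0.897, permutation p = 8e-05 and 0.00013, adjusted 0.0012 and 0.0019). The value was r = 0.955 in the 8 NASH livers, 0.967 in the 8 HFLMCD livers and 0.932 without the 2 livers farthest from the median of Reln. Pdgfrb and Vim followed (r = 0.938, rho = 0.924, permutation p = 1e-05, the smallest that the resamples can give, and 4e-05, adjusted 0.00045 and 0.0014). Their r was 0.939 in the NASH livers, 0.957 in the HFLMCD livers and 0.887 without the 2 livers farthest from the median of Pdgfrb.

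The other pairs past the threshold joined 2 quiescent or 2 activated markers. Reln and Ecm1 gave r = 0.879, Ecm1 and Colec10 0.861, Reln and Hgf 0.797 and Hgf and Colec10 0.785, with rho of 0.85, 0.876, 0.762 and 0.821. Acta2 and Tagln gave r = 0.65 and rho = 0.721 (permutation p = 0.0059 and 0.0045, adjusted 0.038 and 0.029). Their r was 0.581 in the NASH livers, 0.895 in the HFLMCD livers and 0.686 without the 2 farthest for Acta2. Lrat was in none of the 7 pairs, and its values differed between the diets: in the 8 HFLMCD livers r was 0.841 with Reln, 0.812 with Hgf, 0.851 with Ecm1 and 0.847 with Colec10, and in the 8 NASH livers 0.33, 0.0305, 0.12 and 0.288. Hgf gave 0.881 with Pdgfrb and 0.845 with Vim in the HFLMCD livers and -0.389 and -0.237 in the NASH livers. These differences between diets were not tested, and the HFLMCD livers include liver 10, the highest of its group for 8 members. Over all 16 livers Lrat gave 0.599 with Reln, 0.516 with Hgf, 0.611 with Ecm1 and 0.538 with Colec10. Without the 2 livers farthest from the median of Lrat these fell to 0.294, 0.142, 0.416 and 0.299. Hgf with Pdgfrb went from 0.181 to -0.232 without the 2 farthest for Hgf, and Hgf with Vim from 0.171 to -0.117. The lowest value was that of Colec10 and Tagln (r = -0.441, rho = -0.403, adjusted permutation p = 0.25 and 0.31). Between Acta2 and Vim, both activated markers, r was 0.484 (rho = 0.491, adjusted permutation p = 0.076 and 0.18). Libraries share depth and composition within a liver, and after each liver was also scaled to its median gene, Reln with Colec10 stood at 0.947, Pdgfrb with Vim at 0.931 and Acta2 with Tagln at 0.639.

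**Figure D5:**
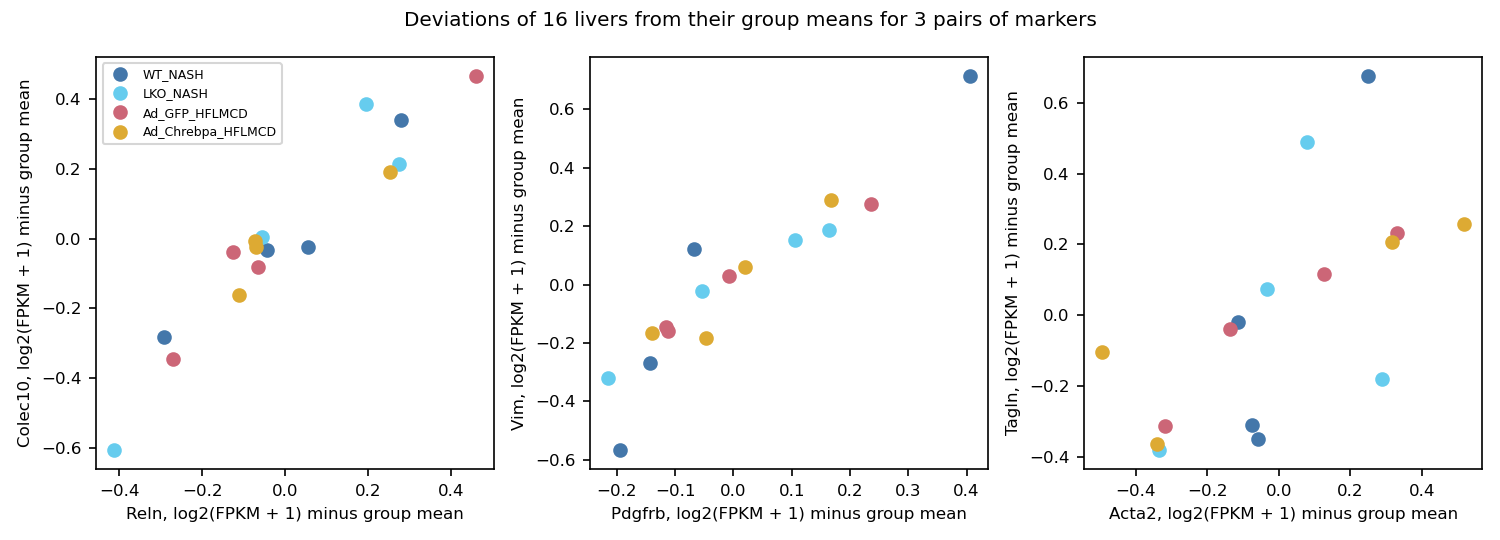
Deviation of each of 16 livers from its group mean, in log2(FPKM + 1), for Reln against Colec10, Pdgfrb against Vim and Acta2 against Tagln, coloured by group. The points of the first 2 panels lie close to a line (r = 0.954 and 0.938), and those of the third scatter more (r = 0.65).

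Some extremes of a group fell by kind of marker. In WT_NASH liver 19 was highest for Lrat, Reln, Hgf, Ecm1, Colec10 and Des, and liver 20 for Acta2, Tagln, Pdgfrb and Vim. In Ad_Chrebpa_HFLMCD liver 16 was highest for Lrat, Reln, Ecm1 and Colec10 and lowest for Acta2, Des and Pdgfrb, while liver 15 was highest for the other 6 members. In LKO_NASH liver 22 was highest for Hgf, Ecm1 and Colec10 and lowest for Lrat and all 5 activated markers. Other livers were extreme across both kinds: liver 17 was lowest in WT_NASH for 8 members, all but Lrat and Tagln, and liver 10 was highest in Ad_GFP_HFLMCD for 8, all but Acta2 and Tagln.

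The genes most like each member were taken over the 16 livers by the same group-centred correlation, among 10920 genes with a mean of at least 1 FPKM. For Acta2 they were Dpt (dermatopontin, r = 0.925), Eln (elastin, 0.832) and Plac9b (0.806), of which the first 2 are matrix proteins. For Pdgfrb they were Ehd2 (0.938), Vim (0.938) and Ptgfrn (0.925), and for Vim they were Pdgfrb, Crip1 (0.934) and Ehd2 (0.915). For Reln they were Colec10, the Notch ligand Dll4 (0.943) and Sbf2 (0.943), and for Colec10 they were Sbf2 (0.965), Dll4 (0.96) and Cyp4b1 (0.959). For Ecm1 they were Lrch4 (0.895), the pericyte gene Rgs5 (0.89) and Reln. Tagln went with Nudt4 (0.903), the protease Capn2 (0.895) and Creb3l1 (0.892), Hgf with Rasa4 (0.919), the phosphatase Ptpn6 of blood cells (0.914) and Prkch (0.91), and Des with C1qtnf6 (0.879), Prkar2a (0.873) and Mrc2 (0.855). Lrat went with the polymerase subunit Polr2a (0.914), Gigyf1 (0.906) and the ion channel Piezo1 (0.904). These values describe 16 libraries and carry no test, and after scaling each liver to its median gene Prkar2a dropped to rank 48 for Des, at 0.673.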

How the data were processed

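RNA of 16 livers was sequenced as 1 library each. Per the file headers the deposited tables give expected counts, which are estimated counts per gene and not normalised, and FPKM as the authors computed it. HISAT2 is named in the submitters' processing notes, with no version. The counting program, genome build and strandedness are not stated in the labels. Of 17436 entries 26 named by a transcript were summed into their gene, and 17371 of 17410 genes matched a GRCm38.p6 gene table, used for names. Totals per group were 29640300 to 33996245 (Ad_Chrebpa_HFLMCD), 32131999 to 36163207 (Ad_GFP_HFLMCD), 21569511 to 32110154 (LKO_NASH) and 21254937 to 40327264 (WT_NASH), and no interval here covers more than these counts and the spread between libraries.

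Expected counts were rounded and tested over all genes by edgeR (version 4.0.16, R 4.3.3) with its quasi-likelihood F test, after filterByExpr and TMM, two-sided and with Benjamini-Hochberg adjustment at 0.05, each pair of groups in its own fit of 8 livers and the difference of effects in a fit of 16. The labels number the livers without stating that each is a separate animal, so the spread behind the p-values may be technical. Alternatives were DESeq2 1.42.0 and its size factors, limma 3.58.1 (voom, and log2(FPKM + 1) or log2(FPKM + 0.1), computed from the deposited FPKM), other filters, all 16 livers in 1 fit and leaving out each liver. Library totals without TMM, and scaling to each liver's median gene, were chosen after seeing the data. Pairs of members were tested by permuting livers within groups. The edgeR fits were tested on simulated data. The members, the gene lists and the rules were chosen with earlier results of these data known. Genes named outside the members are the 3 with the lowest p among called genes of a list, and the 3 most correlated with a member, and 1 of them is not reported here. Single genes of a level or level range, such as Myh11, Cnn1, Cald1, Mylk, Acta1, Actc1 and Pcsk7, were named after their values were seen. Plots were drawn in matplotlib 3.10.9, and tables in pandas 2.3.3 under Python 3.11.15.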

Additional observations from a re-analysis of the deposited data

Results flagged for a closer look

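In 4 of 40 sets of 4 livers 1 liver was far from the others by Dixon's criterion, which by chance happens in about 1 of 20. Lrat in liver 24 of LKO_NASH was at 5.14 FPKM, above 3.97 to 4.10 in the others. Reln in liver 16 of Ad_Chrebpa_HFLMCD was at 12.46, above 9.45 to 9.76. Hgf in liver 10 of Ad_GFP_HFLMCD was at 10.52, above 5.33 to 5.84. Acta2 in liver 20 of WT_NASH was at 1.28, above 0.77 to 0.84. Without liver 20 the Acta2 difference between LKO_NASH and WT_NASH stayed positive, within 0.47 to 0.82 on the log2 scale. Without liver 10 the Hgf difference between the adenovirus groups went from -0.03 to 0.24.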

How the results depend on the processing

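No paired analysis was possible because the groups share no replicate numbers. In LKO_NASH against WT_NASH 0 genes were called by edgeR, 158 by DESeq2, 152 with all 16 livers in 1 fit and 0 to 420 when 1 liver was left out, of which only the fit without liver 21 gave any. No member was called in any of these. In Ad_Chrebpa_HFLMCD against Ad_GFP_HFLMCD the 1110 genes became 1944 with DESeq2, 336 with all 16 livers and 400 (without liver 16) to 1722 (without liver 14), and fewer than 1110 divided by 1.5 also without liver 11, 12, 13 or 15. Members called there were 2 with DESeq2 and 1 each with log2(FPKM + 1), log2(FPKM + 0.1) and library totals. For the difference of effects 359 genes became 994 with DESeq2, 1020 with log2(FPKM + 1), 856 without its filter, 943 with log2(FPKM + 0.1), 996 with library totals and 120 (without liver 24) to 1683 (without liver 21). The members called were 1, Acta2, in each of these 5 settings and 0 to 1 over single livers left out. In the control comparison all alternatives stayed within 1.5 times of 7971 genes and 8 members.

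Signs that changed belong to values that edgeR with TMM did not call, except Ecm1 between the control groups, and the cause was not tested apart from the median shifts given above. In the deletion comparison Ecm1 was at -0.000522 with DESeq2 size factors, -0.0074 without a filter, -0.000664 with DESeq2 and -0.0070 with 16 livers. Reln, Colec10 and Tagln were at 0.085, 0.081 and 0.051 with log2(FPKM + 1), with and without its filter, at 0.096, 0.088 and 0.061 with log2(FPKM + 0.1) and at 0.11, 0.13 and 0.027 with library totals. Over single livers left out Ecm1 ran from -0.049 to 0.044, Des from -0.046 to 0.11, Pdgfrb from -0.031 to 0.22, Lrat from -0.036 to 0.13, Reln from -0.14 to 0.078, Colec10 from -0.19 to 0.16 and Tagln from -0.35 to 0.16. In the overexpression comparison Ecm1 was at -0.0016 with a mean FPKM of at least 1 and Hgf at 0.0072 with limma-voom. Ecm1 and Des were at -0.060 and -0.039 with log2(FPKM + 1), with and without its filter, -0.060 and -0.044 with log2(FPKM + 0.1) and -0.069 and -0.068 with library totals. Over single livers Des ran from -0.090 to 0.14, Lrat from -0.22 to 0.024, Reln from -0.14 to 0.13, Hgf from -0.14 to 0.24 and Ecm1 from -0.075 to 0.12. Between the control groups Colec10 was at -0.052 with a mean FPKM of at least 1, -0.52 with log2(FPKM + 1), with and without its filter, -0.59 with log2(FPKM + 0.1), -0.61 with library totals and -0.13 to 0.19 over single livers, and Ecm1 was at -0.0011 with library totals.

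In the difference of effects Reln and Ecm1 were at 0.0022 and 0.0045 with DESeq2 size factors, 0.0043 and 0.0052 with a mean FPKM of at least 1, 0.0022 and 0.0044 with DESeq2, 0.17 and 0.21 with log2(FPKM + 1), with and without its filter, 0.19 and 0.21 with log2(FPKM + 0.1) and 0.23 and 0.22 with library totals, and Des at -0.020 with limma-voom. Over single livers Reln ran from -0.20 to 0.098, Hgf from -0.081 to 0.33, Colec10 from -0.036 to 0.33, Des from -0.12 to 0.12 and Ecm1 from -0.14 to 0.056. Depth limits Acta2 most among the members, at 46.3 counts in its lowest library.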
